A study of Mus musculus with 21 samples.

Results

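A set of 10 genes of insulin signalling and glucose transport were followed in left ventricular tissue of mice with hypertrophic cardiomyopathy and their wild-type littermates, on a control diet or on the same diet with empagliflozin, an inhibitor of the renal sodium-glucose cotransporter SGLT2. They are Insr, Irs1, Irs2, Pik3r1, Akt2, Tbc1d4, Slc2a4, Slc2a1, Foxo1 and Foxo3, taken as the rows of the table of counts whose Ensembl identifiers carry these symbols. This gave 10 of 55450 genes, chosen with earlier results of these data known, and all 10 had enough counts to be tested. Each of the 21 male 129S6/SvEv mice gave a single poly(A) RNA library, with totals between 23491535 and 43539684 counts, and the genes were read at depths between 515 counts (Slc2a1) and 25425 counts (Slc2a4) per mouse.

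The groups were wild-type on control diet (WT-CD, n = 5), heterozygous R403Q on control diet (R403Q-CD, n = 7), wild-type on empagliflozin (WT-EMPA, n = 5) and heterozygous R403Q on empagliflozin (R403Q-EMPA, n = 4). R403Q is a germline missense mutation of the α-myosin heavy chain, encoded by Myh6, so that the mutant protein is made by cardiomyocytes while the RNA comes from all cells of the ventricle. Empagliflozin (EMPA) was mixed into the food at 0.15 mg per g of diet. The mice were 12 weeks old, and the methods give 2 weeks on the EMPA diet. The deposited description gives 16 weeks, a time longer than the age of the mice. No cage held both diets (4 CD cages and 3 EMPA cages), so every comparison of diets is also one between cages. Of the 7 cages, 6 held both genotypes.

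Insulin binds the receptor encoded by Insr, which phosphorylates the adaptors IRS1 and IRS2. These recruit phosphoinositide 3-kinase, whose regulatory subunit p85α is the product of Pik3r1, and its lipid product activates AKT2. AKT2 phosphorylates AS160, the Rab GTPase-activating protein encoded by Tbc1d4, which releases vesicles that carry the insulin-responsive transporter GLUT4 (Slc2a4) to the membrane, and it keeps the transcription factors FOXO1 and FOXO3 out of the nucleus. GLUT1 (Slc2a1) is the transporter that works without insulin and dominates in the fetal heart.

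One library stood apart. R403Q-CD replicate 2 had a mean Spearman correlation of 0.969 with the other 20 libraries, against 0.985 or more for each of the others. It was the lowest of all mice for 6 of the 10 genes (Insr, Slc2a4, Pik3r1, Akt2, Tbc1d4 and Foxo3). In the same library the summed level of 8 cardiomyocyte markers was 47460 CPM (counts per 1000000 counts of the library, after scaling for composition), where the group median was 78300 CPM. The summed level of 7 fibroblast markers was 5512 CPM (group median 1642) and that of 4 atrial markers 608 CPM (group median 28.5). Atrial markers also summed to 260 CPM in WT-CD replicate 5 and to 157 CPM in R403Q-CD replicate 6. R403Q-CD replicate 5 had 66700 CPM for cardiomyocyte and 2770 CPM for fibroblast markers. Values without R403Q-CD replicate 2 are given beside the genotype results of Slc2a4, Pik3r1, Akt2, Foxo3, Hk2 and Klf15. As a check of the tissue label, cardiomyocyte markers summed to 66700 CPM or more in every other mouse, and skeletal muscle markers to at most 2.815 CPM in any mouse, with Myh4 at 3 counts or fewer in each.

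Levels of different genes were compared per kilobase of exon. In WT-CD hearts Slc2a4 had the highest level at 190 ± 9.14 CPM per kb (SD, n = 5), followed by Pik3r1 (44.01 ± 2.27), Foxo3 (34.4 ± 2.50), Akt2 (17.0 ± 0.438) and Insr (15.0 ± 1.05). Tbc1d4, Irs1, Irs2, Slc2a1 and Foxo1 lay between 9.37 and 5.84 CPM per kb. The ranks were the same when the longest transcript of each gene was taken as its length. Per length, Slc2a4 exceeded Slc2a1 31.8-fold in WT-CD (27.5 to 36.9 over mice) and 30.8-fold in WT-EMPA (28.0 to 33.1). The ratio was 24.1 in R403Q-CD (12.8 to 32.4, or a mean of 25.98 and a lowest of 16.1 without replicate 2) and 23.4 in R403Q-EMPA (21.6 to 24.9), the latter group lying below every WT-EMPA mouse.

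**Figure D1:**
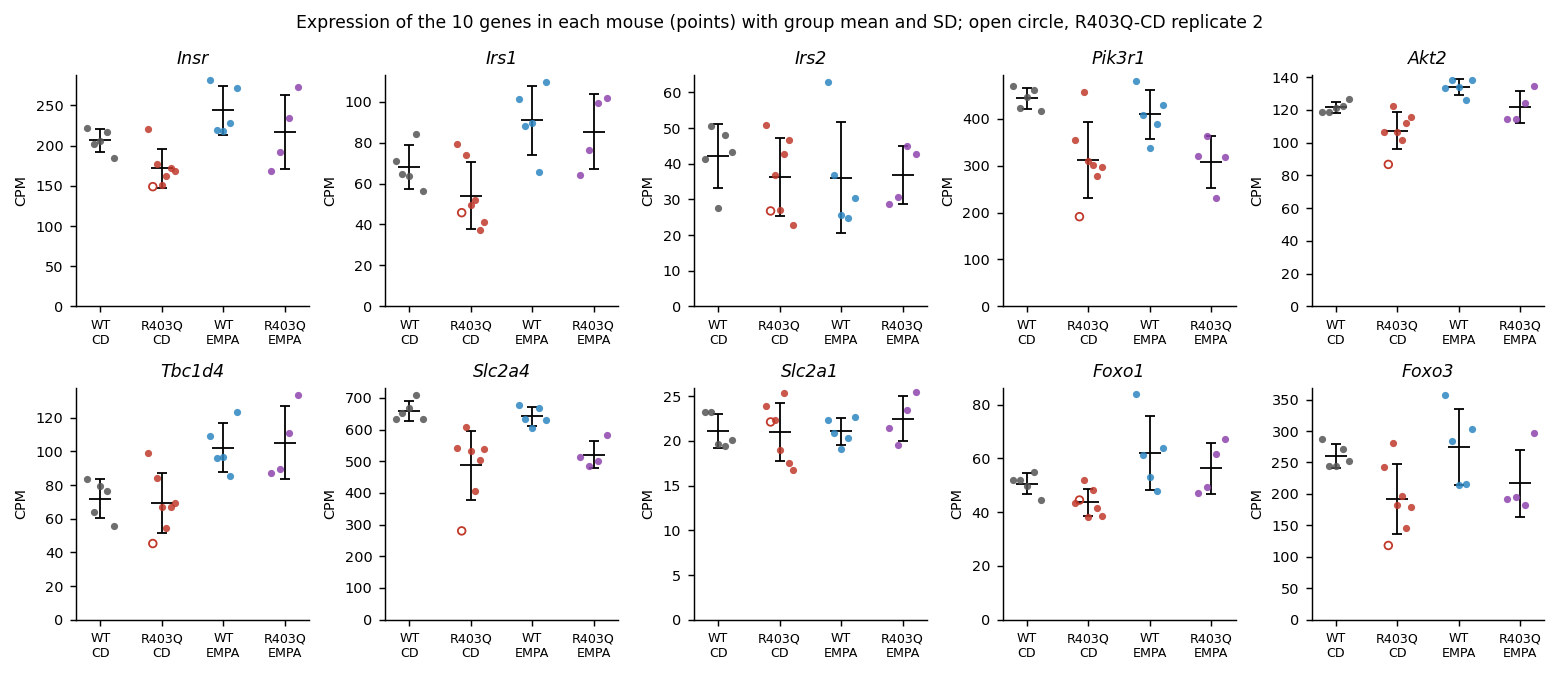
Expression of the 10 genes in CPM (linear axis from 0) in each of 21 mice, grouped by genotype and diet, with the group mean and SD as bars and R403Q-CD replicate 2 as an open circle. Slc2a4 in the R403Q groups lies below the WT groups on the same diet (486.9 against 659.5 CPM on CD, 521.1 against 642.5 CPM on EMPA), and the 4 group means of Slc2a1 lie between 21.01 and 22.5 CPM.

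The question of genotype was asked of both diets together, as the mean of R403Q minus WT on CD and on EMPA. Slc2a4, Pik3r1 and Akt2 fell in R403Q hearts, with fold changes of 0.774, 0.728 and 0.896, and Slc2a1 did not pass the test in any comparison. These 3 of 10 genes were past the threshold (adjusted p under 0.05, edgeR) in a comparison in which 10.9% of 17309 genes passed, and 4.58% of the 17309 passed as lower in R403Q. At an unadjusted p under 0.05 there were 5 of 10 genes lower, against 13% of all genes. In bulk tissue, fewer cells of a type and less RNA per cell cannot be told apart.

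Slc2a4 (ENSMUSG00000018566, GRCm38 chromosome 11, 69942539 to 69948188, minus strand) encodes GLUT4. It had 633, 634, 652, 669 and 710.1 CPM in the 5 WT-CD mice and 605, 629, 632, 668 and 679 CPM in the 5 WT-EMPA mice. The R403Q-CD mice ran from 280.2 CPM over a median of 532 CPM to 607 CPM, and the R403Q-EMPA mice had 484, 502, 515 and 584 CPM. On each diet the R403Q mice lay below all WT mice without overlap. Groups that did not overlap, with R403Q either lower or higher, were found for 2.12% of all genes on CD and for 6.77% on EMPA. Averaged over diets, the log2 fold change was -0.37 ± 0.09 (SE, adjusted p = 0.0182), and without R403Q-CD replicate 2 it was -0.33 (adjusted p = 0.00178). The call held in each of the 21 fits that left out 1 mouse and under every other alternative.

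Pik3r1 (ENSMUSG00000041417, chromosome 13, 101680563 to 101768217, minus strand) showed the largest fall of the 10 genes. Its levels were 418, 423, 446, 462 and 469 CPM in WT-CD and 339, 390, 409, 430 and 480 CPM in WT-EMPA. They ran from 191 to 457 CPM in R403Q-CD (median 301 CPM), and were 230.1, 320, 321 and 363 CPM in R403Q-EMPA. The groups overlapped on both diets, on CD through R403Q-CD replicate 3 alone, which had 457 CPM. The averaged log2 fold change was -0.46 ± 0.11 (SE, adjusted p = 0.0147), or -0.42 (adjusted p = 0.00604) without R403Q-CD replicate 2, and this call also held in all 21 fits without 1 mouse.

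Akt2 (ENSMUSG00000004056, chromosome 7, 27591552 to 27640826, plus strand) varied least of all within WT-CD (CV 2.57%). It had 119, 119, 121, 122 and 126 CPM in WT-CD and 126, 134, 134, 138 and 138 CPM in WT-EMPA. R403Q-CD ran from 86.7 to 122 CPM (median 106 CPM) and R403Q-EMPA had 114, 115, 124 and 135 CPM, so that R403Q and WT overlapped on each diet. The averaged log2 fold change was -0.16 ± 0.05 (SE, adjusted p = 0.0463). This call was close to the threshold. It was lost in 15 of the 21 fits without 1 mouse (adjusted p up to 0.104), with library size alone as the scaling (0.124), with no filter on low counts (0.0634) and with cage in the model (0.0566), and it held without R403Q-CD replicate 2 (-0.14, adjusted p = 0.0272).

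Insr (chromosome 8, 3122061 to 3279617) and Foxo3 (chromosome 10, 42181841 to 42276755) did not pass, at averaged log2 fold changes of -0.22 ± 0.08 (SE, adjusted p = 0.0922) and -0.39 ± 0.13 (SE, adjusted p = 0.06). Insr passed when either of 2 mice with a high level for their group was left out: R403Q-CD replicate 1 (-0.25, adjusted p = 0.0385) or R403Q-EMPA replicate 4 (-0.28, adjusted p = 0.0297). Foxo3 passed without R403Q-CD replicate 1 (0.0443) or replicate 3 (0.0195), without R403Q-EMPA replicate 4 (0.0246) or without WT-EMPA replicate 3 (0.0415), and with DESeq2's Wald test on all mice (-0.40, adjusted p = 0.0278). Without R403Q-CD replicate 2 it had -0.35 (adjusted p = 0.0538). The remaining averaged values were -0.21 for Irs1, -0.17 for Foxo1, -0.10 for Irs2, -0.01 for Tbc1d4 and 0.04 for Slc2a1. For Slc2a1 the 95% interval of the log2 fold change ran from -0.11 to 0.20, and for Tbc1d4 from -0.25 to 0.24.

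Cage mates allowed the genotypes to be set side by side within the 6 cages that held both. Slc2a4, Pik3r1, Akt2, Insr and Foxo3 were lower in R403Q mice in 6 of 6 cages, a pattern that 10.1% of all genes showed in this direction. The within-cage difference of mean log2 CPM ran from -1.24 to -0.22 for Slc2a4 (median -0.36), from -1.18 to -0.19 for Pik3r1 (median -0.46) and from -0.47 to -0.10 for Akt2 (median -0.15). It ran from -1.05 to -0.16 for Foxo3 and from -0.46 to -0.01 for Insr, which in the cage with 1 mouse of each genotype had 7.788 log2 CPM in R403Q and 7.797 in WT. The lowest value for each of the 5 genes came from the cage of R403Q-CD replicate 2, without which the lowest were -0.42 for Slc2a4, -0.66 for Pik3r1 and -0.20 for Akt2 and all 5 genes were lower in 5 of 5 cages. Irs1 and Foxo1 were lower in 4 of 6 cages, Irs2 and Tbc1d4 in 3, and Slc2a1 in 1.

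**Figure D2:**
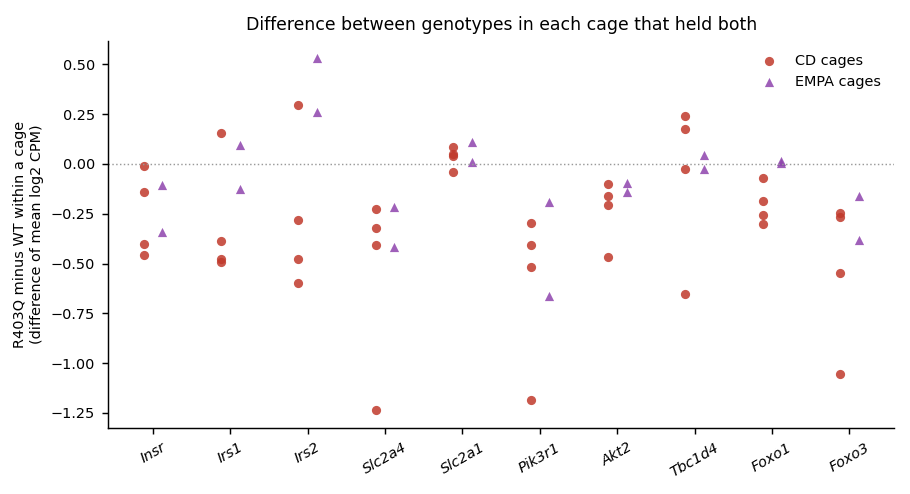
Difference of mean log2 CPM between R403Q and WT mice within each of 6 cages (vertical axis), for the 10 genes, with CD cages as circles and EMPA cages as triangles. All points of Slc2a4, Pik3r1, Akt2, Insr and Foxo3 lie below 0, and those of Slc2a1 lie between -0.04 and 0.11.

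Diet by diet, the same differences were tested with fewer mice. In R403Q-CD against WT-CD, 0 of 10 genes had an adjusted p under 0.05, in a comparison with 250 genes (1.44%) past it. At an unadjusted p under 0.05 there were 5 of 10 genes lower (Insr, Slc2a4, Pik3r1, Akt2 and Foxo3), against 9.15% of all genes. All 10 log2 fold changes were negative, as were 47.5% of those of all genes, with a median of -0.24 against 0.01 over all genes. The closest to the threshold were Slc2a4 at -0.44 ± 0.12 (SE, adjusted p = 0.0629) and Pik3r1 at -0.50 ± 0.14 (SE, adjusted p = 0.0684).

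These values turned on single mice and on the test. Without R403Q-CD replicate 2, Slc2a4 passed at -0.34 (adjusted p = 0.0291), while Pik3r1 had -0.42 (adjusted p = 0.0823) and Foxo3 -0.35 (adjusted p = 0.263). Without R403Q-CD replicate 3, Slc2a4 (-0.50, 0.0265), Pik3r1 (-0.62, 0.0148) and Foxo3 (-0.56, 0.048) passed. With cage in the model, Slc2a4 (-0.55, adjusted p = 0.0267), Pik3r1 (-0.60, 0.0304) and Akt2 (-0.24, 0.0364) passed, and DESeq2's Wald test passed Slc2a4 (0.0172) and Pik3r1 (0.0204).

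On the EMPA diet, R403Q against WT gave 0 of 10 genes past the adjusted threshold, in a comparison with 10 genes (0.0578%) past it. Slc2a4 (-0.30 ± 0.14, SE) and Pik3r1 (-0.41 ± 0.17, SE) had an unadjusted p under 0.05, against 6.56% of all genes in this direction, with adjusted p-values of 0.327 and 0.258. The interaction of genotype and diet passed for 0 of 10 genes and for 0 of 17309 (0%) by edgeR, and DESeq2 also passed 0, while 567 genes (3.28%) had an unadjusted p under 0.05, none of the 10 among them. The intervals of that difference were wide: for Slc2a4 it was 0.14 on the log2 scale, with a 95% interval from -0.25 to 0.53.

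The question of diet was asked of both genotypes together. Irs1, Tbc1d4 and Foxo1 rose on EMPA, by 45.2%, 46.9% and 25.6%, and Slc2a4 (2.11%), Slc2a1 (3.33%) and Pik3r1 (-4.59%) did not pass. The 3 of 10 genes past the threshold stood in a comparison in which 2.91% of all genes passed, and 1.98% of all genes passed as higher on EMPA. At an unadjusted p under 0.05 there were 5 of 10 genes higher (Insr and Akt2 in addition), against 10.7% of all genes.

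These p-values take cage mates as independent, and the EMPA cages differed in the same 3 genes. Irs1 ran from 64.2 to 76.2 CPM in the cage of WT-EMPA replicate 4 and R403Q-EMPA replicates 1 and 2, from 88.2 to 101 CPM in the cage of WT-EMPA replicates 1 to 3, and from 99.3 to 110 CPM in the cage of WT-EMPA replicate 5 and R403Q-EMPA replicates 3 and 4. In the same order of cages Tbc1d4 had means of 87.3, 101 and 123 CPM and Foxo1 of 48.1, 66.1 and 64.3 CPM. The clock genes Arntl (3.22, 9.31 and 13.3 CPM) and Dbp (66.2, 44.8 and 27.0 CPM) differed between these cages too. The first of the 3 cages thus lay lowest for Irs1, Tbc1d4, Foxo1 and Arntl and highest for Dbp. The 4 CD cages had means from 46.6 to 75.1 CPM for Irs1 and from 61.6 to 91.3 CPM for Tbc1d4. For Foxo1 they ran from 43.2 to 48.7 CPM. The CD cage of WT-CD replicate 1 and R403Q-CD replicate 1 was highest for Irs1 and Tbc1d4, above the first EMPA cage. It had 5.49 CPM for Arntl and 61.2 CPM for Dbp. The part of clock genes in the diet differences was not tested.

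With cage as a random block in limma-voom, added after seeing the data, Tbc1d4 passed at 0.55 (adjusted p = 0.0492), while Irs1 (0.54, adjusted p = 0.0745) and Foxo1 (0.31, adjusted p = 0.125) did not. Without a cage term the same tool gave 0.0173, 0.0322 and 0.0563. The correlation shared by all genes was 0.103 within cages, below the gene's own estimate for Irs1 (0.64), Tbc1d4 (0.53) and Foxo1 (0.29). Without the cage of WT-EMPA replicate 5 and R403Q-EMPA replicates 3 and 4, 0 of 10 genes passed, with Irs1 at 0.36 (adjusted p = 0.47), Tbc1d4 at 0.39 (0.354) and Foxo1 at 0.21 (0.524). Without the cage of WT-EMPA replicates 1 to 3, 0 of 10 passed, and without the remaining cage 5 of 10 did. With cages as the units, not adjusted for genotype, the means of 3 EMPA and 4 CD cages differed by 0.52 for Irs1 (exact permutation p = 0.114, two-sided), 0.52 for Tbc1d4 (exact permutation p = 0.0857) and 0.33 for Foxo1 (exact permutation p = 0.0571), unadjusted among 10 genes, where the smallest possible p was 0.0286. Akt2 alone of the 10 reached it, with a difference of 0.19 and no overlap of cage means.

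Irs1 (ENSMUSG00000055980, chromosome 1, 82233101 to 82291416, minus strand) encodes the adaptor that couples the receptor to phosphoinositide 3-kinase. It had 56.2, 63.9, 64.8, 71.0 and 84.4 CPM in WT-CD and 65.4, 88.2, 89.6, 101 and 110 CPM in WT-EMPA. In R403Q-CD it ran from 37.1 to 79.2 CPM (median 49.4 CPM), and the R403Q-EMPA mice had 64.2, 76.2, 99.3 and 102 CPM. The diets overlapped in both genotypes, through 1 of 5 WT-EMPA mice and 2 of 4 R403Q-EMPA mice that lay below the highest CD mouse, and these 3 mice shared a cage. The averaged log2 fold change was 0.54 ± 0.13 (SE, adjusted p = 0.0322) and passed under every alternative to the test and the scaling that had no cage term, but it was lost in 8 of 21 fits without 1 mouse (adjusted p up to 0.0947). Its relative Irs2 (chromosome 8, 10984681 to 11008458) had -0.10 ± 0.18 (SE, adjusted p = 0.796), and the ratio of Irs1 to Irs2 per length was 1.16 in WT-CD, 1.08 in R403Q-CD, 1.90 in WT-EMPA and 1.61 in R403Q-EMPA.

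Tbc1d4 (ENSMUSG00000033083, chromosome 14, 101442360 to 101609191, minus strand) had 55.9, 63.8, 76.7, 79.6 and 83.6 CPM in WT-CD and 85.5, 96.4, 96.7, 109 and 124 CPM in WT-EMPA. These WT groups did not overlap, as was found in either direction for 3.45% of all genes. R403Q-CD mice ran from 45.3 to 98.9 CPM (median 67.2 CPM), and R403Q-EMPA mice had 87.0, 89.3, 111 and 133 CPM, overlapping through R403Q-CD replicate 1 at 98.9 CPM. The averaged log2 fold change was 0.55 ± 0.12 (SE, adjusted p = 0.0182), or 0.51 (adjusted p = 0.012) without R403Q-CD replicate 2. It missed the threshold without R403Q-EMPA replicate 3 (0.54, adjusted p = 0.0537) or replicate 4 (0.49, 0.0556).

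Foxo1 (ENSMUSG00000044167, chromosome 3, 52268336 to 52353221, plus strand) had 44.7, 49.7, 51.8, 51.9 and 55.0 CPM in WT-CD and 47.8, 52.9, 61.4, 64.1 and 84.0 CPM in WT-EMPA. It ran from 38.1 to 52.0 CPM in R403Q-CD (median 43.5 CPM) and was 47.2, 49.4, 61.7 and 67.1 CPM in R403Q-EMPA. The groups overlapped in both genotypes. The averaged log2 fold change was 0.33 ± 0.09 (SE, adjusted p = 0.0459). This call was lost in 15 of 21 fits without 1 mouse (adjusted p up to 0.127), with library size alone (0.0612), with no filter on low counts (0.0562) and with limma on the deposited log2 values (0.0684). Foxo3 had 0.13 ± 0.13 (SE, adjusted p = 0.643).

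Insr (0.29 ± 0.08, SE, adjusted p = 0.0615) and Akt2 (0.16 ± 0.05, SE, adjusted p = 0.0767) lay just outside the threshold. Insr passed without R403Q-CD replicate 1 (0.0259) or R403Q-EMPA replicate 1 (0.0252), Akt2 without R403Q-CD replicate 3 (0.0337), and both with DESeq2 (0.0239 and 0.0326). Group means of Insr were 206 ± 14.5 CPM in WT-CD (SD, n = 5), 172 ± 24.1 CPM in R403Q-CD (SD, n = 7), 244 ± 30.7 CPM in WT-EMPA (SD, n = 5) and 217 ± 46.4 CPM in R403Q-EMPA (SD, n = 4). For Slc2a4 the log2 difference between diets was 0.03, with a 95% interval from -0.17 to 0.23, for Pik3r1 -0.07 (-0.30 to 0.16) and for Slc2a1 0.05 (-0.11 to 0.20).

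Within each genotype 0 of 10 genes passed the adjusted threshold for diet, in comparisons with 2 genes (0.0116%) past it in R403Q and 5 genes (0.0289%) in WT. At an unadjusted p under 0.05, 5 of 10 genes were higher in R403Q-EMPA than in R403Q-CD, against 7.06% of all genes, and 3 of 10 were higher in WT-EMPA than in WT-CD, against 5.94%. The estimates stood side by side at 0.66 and 0.42 for Irs1, 0.60 and 0.51 for Tbc1d4, 0.36 and 0.29 for Foxo1 and 0.34 and 0.24 for Insr, in R403Q and in WT.

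**Figure D3:**
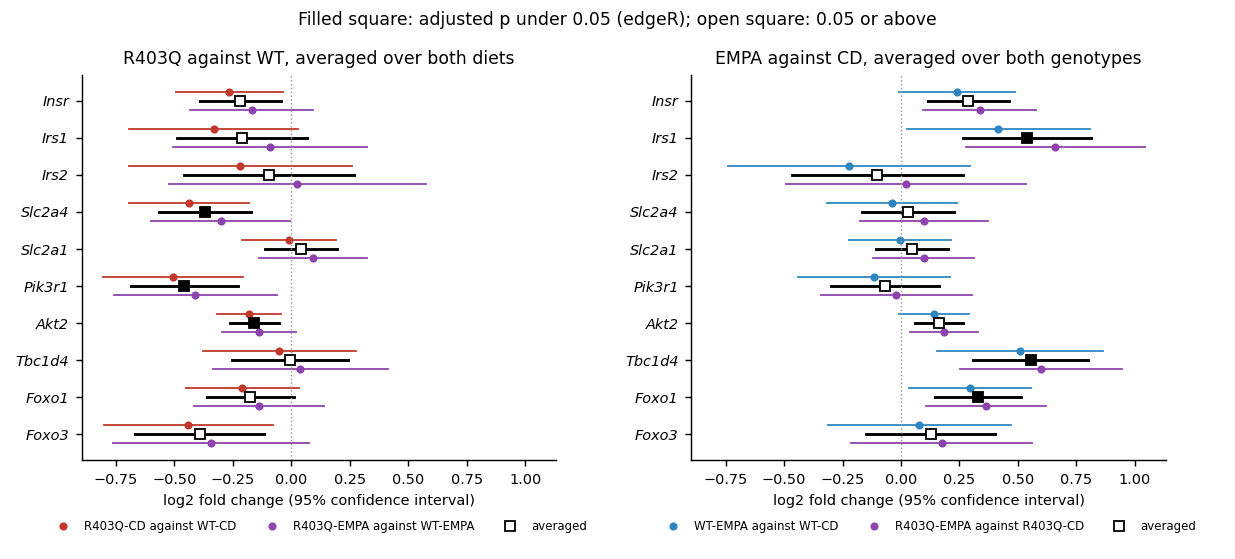
Log2 fold changes (horizontal axis) with 95% confidence intervals for the 10 genes, for genotype (left) and diet (right), within each of the groups compared (circles) and averaged (squares, filled where the adjusted p was under 0.05). Slc2a4, Pik3r1 and Akt2 are filled on the left at -0.37, -0.46 and -0.16, and Irs1, Tbc1d4 and Foxo1 on the right at 0.54, 0.55 and 0.33.

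Promoters are shown for the genes that passed together with diet (Irs1, Tbc1d4, Foxo1), for Irs2 as the close relative of Irs1 that did not pass, and for Pik3r1, which had the largest fall with genotype. Each is the 250 bases before the first start of transcription listed by RefSeq on GRCm38.p6, printed 5′ to 3′ in the direction of the gene. RefSeq entries were matched for 8 of the 10 genes, and those of Insr and Slc2a4 were not among them. The positions are chr1:82291440-82291689 (minus strand) for Irs1, chr8:11008930-11009179 (minus strand) for Irs2, chr14:101609192-101609441 (minus strand) for Tbc1d4, chr3:52268087-52268336 (plus strand) for Foxo1 and chr13:101768218-101768467 (minus strand) for Pik3r1. Capitals mark matches, on either strand, to the E-box CACGTG, the GC box GGGCGG, the CCAAT box CCAAT, the TATA box TATAAA, the FOXO motif GTAAACA or the D-box TTATGTAA.
Irs1: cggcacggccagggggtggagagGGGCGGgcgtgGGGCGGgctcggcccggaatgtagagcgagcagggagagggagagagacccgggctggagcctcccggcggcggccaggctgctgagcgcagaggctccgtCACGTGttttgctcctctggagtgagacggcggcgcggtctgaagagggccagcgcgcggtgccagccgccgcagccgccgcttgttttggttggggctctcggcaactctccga
Irs2: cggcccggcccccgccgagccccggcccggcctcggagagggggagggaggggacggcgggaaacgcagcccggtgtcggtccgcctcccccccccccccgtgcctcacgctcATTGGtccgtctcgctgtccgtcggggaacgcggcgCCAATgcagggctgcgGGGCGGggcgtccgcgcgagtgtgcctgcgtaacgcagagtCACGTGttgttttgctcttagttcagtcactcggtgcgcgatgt
Tbc1d4: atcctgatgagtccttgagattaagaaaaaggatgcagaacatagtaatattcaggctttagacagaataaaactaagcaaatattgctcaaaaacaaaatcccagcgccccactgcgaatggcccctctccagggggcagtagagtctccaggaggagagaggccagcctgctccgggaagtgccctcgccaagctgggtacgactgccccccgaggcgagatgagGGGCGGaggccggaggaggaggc
Foxo1: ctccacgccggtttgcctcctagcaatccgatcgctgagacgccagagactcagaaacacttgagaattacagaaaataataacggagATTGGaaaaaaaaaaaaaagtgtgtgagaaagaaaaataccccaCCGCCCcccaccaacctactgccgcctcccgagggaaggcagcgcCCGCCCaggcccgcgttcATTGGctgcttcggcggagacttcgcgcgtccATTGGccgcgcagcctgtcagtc
Pik3r1: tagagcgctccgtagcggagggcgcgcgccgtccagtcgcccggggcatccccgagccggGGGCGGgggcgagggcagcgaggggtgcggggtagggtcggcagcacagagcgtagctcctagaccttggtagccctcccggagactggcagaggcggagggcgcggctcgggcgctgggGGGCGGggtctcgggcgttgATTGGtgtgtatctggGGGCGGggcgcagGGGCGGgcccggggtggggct

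The E-box was found once each in the windows of Irs1 and Irs2 and in none of the other 6 genes with an entry, where 6.02% of 32851 promoters of the same length held it. The FOXO motif (3.17% of promoters) and the D-box (0.819%) were found in none of the 8 genes. The GC box was found in all 8 (32.7% of promoters hold it), with 5 matches in Foxo3, 4 in Pik3r1, 2 each in Irs1, Slc2a1 and Foxo1 and 1 each in Irs2, Akt2 and Tbc1d4, and the CCAAT box (33.8%) had 3 matches in Foxo1, 2 in Irs2 and 1 in Pik3r1. The GC content of the 8 windows ran from 48.8% to 76.4% (median 69.4%), against a median of 52.4% over all promoters. These are matches of letters in 1 window per gene start.

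Genes of the wider pathway were taken from 8 lists of known components, chosen with earlier results of these data known. The lists held 82 genes besides the 10, of which 80 could be tested. With genotype, averaged over diets, 13 of the 80 passed, 12 lower and 1 higher in R403Q, beside the 10.9% of all genes that passed (4.58% as lower). Hk2, the hexokinase that traps glucose in muscle cells, fell from 402 to 299 CPM (-0.43 ± 0.10, SE, adjusted p = 0.0121), and it also passed on CD alone (-0.53, adjusted p = 0.0424). Klf15, a transcription factor known to raise Slc2a4 expression, fell from 130 to 104 CPM (-0.33 ± 0.07, SE, adjusted p = 0.00937; on CD alone -0.39, adjusted p = 0.0372). Without R403Q-CD replicate 2 both kept these calls, on CD at -0.44 for Hk2 (adjusted p = 0.0164) and -0.36 for Klf15 (adjusted p = 0.0474). With library size alone as the scaling Klf15 lost its call on CD (-0.33, adjusted p = 0.0534).

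Of the glycogen branch, 5 of 11 genes passed and all 5 fell: Hk2, the glycogen synthase kinases Gsk3b (-0.15) and Gsk3a (-0.15), Ppp1r3a (-0.24), the muscle targeting subunit of protein phosphatase 1, and Gys1 (-0.29), the muscle glycogen synthase, named outside the rule for named genes. The median of the list was -0.15 against 0.01 over all genes. Of 17 genes of the GLUT4 storage vesicle and its docking, 4 passed, 3 lower and 1 higher. Among them the vesicle GTPase Rab10 (-0.17) and the GTPase Rhoq (-0.18) fell, while Rab13 rose from 4.34 to 5.77 CPM (0.41).

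Of 9 glucose transporters tested, Slc2a4 and Slc2a8 passed, the latter at -0.22 from 15.7 to 13.4 CPM (adjusted p = 0.0497). Slc2a12 and Slc2a3, named outside the rule for named genes, had averaged values of -0.12 and -0.12 and did not pass. Of the 9 estimates 4 were positive, and 1 transporter was higher in R403Q at an unadjusted p under 0.05 (edgeR). Of 14 genes of the phosphoinositide 3-kinase and AKT list only Pik3r1 and Akt2 passed. The catalytic subunit Pik3ca (-0.01) and the kinase Akt1 (0.10), also named outside that rule, did not. Of 9 regulators of Slc2a4 transcription, Klf15, Mef2a (-0.17) and Nfia (-0.20) fell, where 4.58% of all genes passed as lower. The calls of Mef2a and Nfia were lost with library size alone as the scaling. All 9 estimates were negative, with a median of -0.16 against 0.01 over all genes. Of 13 genes of the receptor and its proximal partners 0 passed. With library size alone as the scaling, 4 of the 13 genes kept the call (Hk2, Klf15, Gys1 and Rab13), with cage in the model 9 did, and without R403Q-CD replicate 2 there were 12, Slc2a8 having lost it (adjusted p = 0.0526).

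With diet, averaged over genotypes, 6 of the 80 genes passed, 4 higher and 2 lower on EMPA, beside the 2.91% of all genes that passed (1.98% as higher). Gab1, a docking protein of the receptor, rose (0.26 ± 0.07, SE, adjusted p = 0.0387), as did the Slc2a4 regulator Mef2d (0.33 ± 0.07, SE, adjusted p = 0.0139). Gsk3b rose by 0.16 (adjusted p = 0.0424), a call that it alone of the 6 lost with library size as the scaling. With cage as a random block 2 of the 6 kept the call (Mef2d and Ppp1r3c), and without either of the EMPA cages other than that of WT-EMPA replicate 4 none did. Pdk4, the kinase that inhibits pyruvate dehydrogenase and a known target of FOXO factors, rose from 1785 to 3968 CPM (1.15 ± 0.26, SE, adjusted p = 0.0253). Ppp1r3c, a glycogen-targeting subunit of protein phosphatase 1, fell from 172 to 121 CPM (-0.51 ± 0.11, SE, adjusted p = 0.0149), and the vesicle protein Vamp3 fell by 0.21 on the log2 scale (adjusted p = 0.0216). Of the 16 FOXO target genes Pdk4 alone passed, 13 of 16 estimates were positive and the median was 0.15 against -0.01 over all genes.

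**Figure D4:**
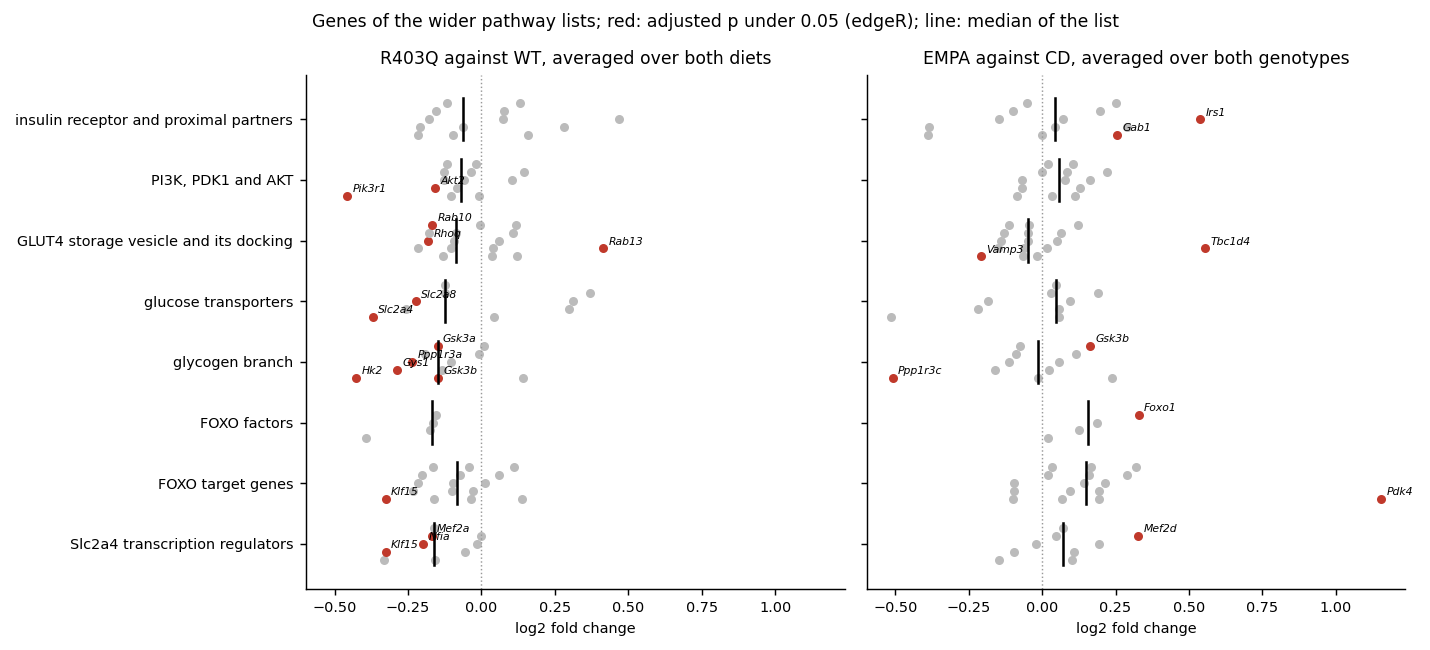
Averaged log2 fold change (horizontal axis) of tested genes in 8 pathway lists, for genotype (left) and diet (right), with genes past an adjusted p of 0.05 in red and named, and a line at the median of each list. Genes not reported here are not drawn but count in the medians. The glycogen branch and the Slc2a4 regulators have medians of -0.15 and -0.16 with genotype, and Pdk4 stands at 1.15 with diet.

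Other genes moved with the same groups. With genotype, averaged over diets, 5 of 6 macrophage markers, 2 of 7 endothelial markers (Fabp4 and Emcn) and 1 of 7 fibroblast markers (Dcn) were higher in R403Q, and 1 of 8 cardiomyocyte markers (Myh6, -0.39) was lower. At an unadjusted p under 0.05 (edgeR), 5 macrophage, 3 endothelial and 7 fibroblast markers were higher and 2 cardiomyocyte markers lower, with 0 the other way. The medians were 0.63, 0.13, 0.76 and -0.11, against 0.01 over all genes. Summed macrophage markers ran from 178 to 243 CPM in WT-CD, 237 to 375 in R403Q-CD, 158 to 236 in WT-EMPA and 266 to 338 in R403Q-EMPA. Summed cardiomyocyte markers, Myh6 included, ran from 82700 to 90870 CPM in WT-CD, 47460 to 84560 in R403Q-CD, 83540 to 97370 in WT-EMPA and 72000 to 83150 in R403Q-EMPA. The mean log2 CPM of these 8 markers, in which each gene weighs the same, overlapped between genotypes on both diets. On EMPA it ran from 12.72 to 12.86 in WT and from 12.61 to 12.77 in R403Q. Summed endothelial markers ran from 1415 to 1572 CPM in WT-CD, 1583 to 2033 in R403Q-CD, 1401 to 1678 in WT-EMPA and 1665 to 1983 in R403Q-EMPA. Summed fibroblast markers ran from 1123 to 1874 CPM in WT-CD, 1513 to 5512 in R403Q-CD, 1011 to 1559 in WT-EMPA and 1623 to 2086 in R403Q-EMPA. The part of these markers in the differences of Slc2a4, Pik3r1 and Akt2 was not tested.

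With diet, 6 of 8 genes of a fasting and glucocorticoid list passed, 4 higher and 2 lower on EMPA. Among them Pdk4, Angptl4 (1.57) and Ucp3 (0.92) rose, and Tsc22d3 (-0.43) and Per1 (-0.34) fell. Of the genes of the circadian clock, Arntl (1.70) and Clock (0.36) of 5 genes that peak with Bmal1 rose, and Ciart (-1.43), Dbp (-1.02) and Nr1d1 (-0.62) of 7 genes of the opposite phase fell. Arntl encodes Bmal1. Of 5 erythroid markers 4 rose, among them Hbb-bs (0.64), and their summed level ran from 706 to 1717 CPM on CD and from 1214 to 2660 CPM on EMPA. With cage as a random block 4 of the 6 fasting genes, 0 of these 2 and 2 of these 3 clock genes and 2 of the 4 erythroid markers kept the call. Without the cage of WT-EMPA replicate 5 none of these calls was kept, and without the cage of WT-EMPA replicates 1 to 3 there were 2 of the 6 fasting genes, Ciart of the clock genes and 0 of the erythroid markers. Of 7 endothelial markers Kdr rose (0.35, adjusted p = 0.0217), a call lost with cage as a random block. None of 3 atrial, 7 smooth muscle and 7 fibroblast markers tested passed, with medians of -2.40, -0.55 and -0.58, and at an unadjusted p under 0.05 there were 3, 4 and 3 lower and 0, 0 and 1 higher. None of the cardiomyocyte, macrophage, adipocyte and skeletal muscle markers tested passed. By mouse, the mean log2 CPM of the clock genes of the opposite phase was lower by 0.67 in R403Q-EMPA than in R403Q-CD (exact permutation p = 0.0121, two-sided), and that of the fasting list higher by 0.49 in WT-EMPA than in WT-CD (exact permutation p = 0.0159). None of 48 such tests passed adjustment (smallest adjusted p 0.121). The time of day at which tissue was taken is not given in the sources used here, and the part of these genes in the differences of Irs1, Tbc1d4 and Foxo1 was not tested.

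**Figure D5:**
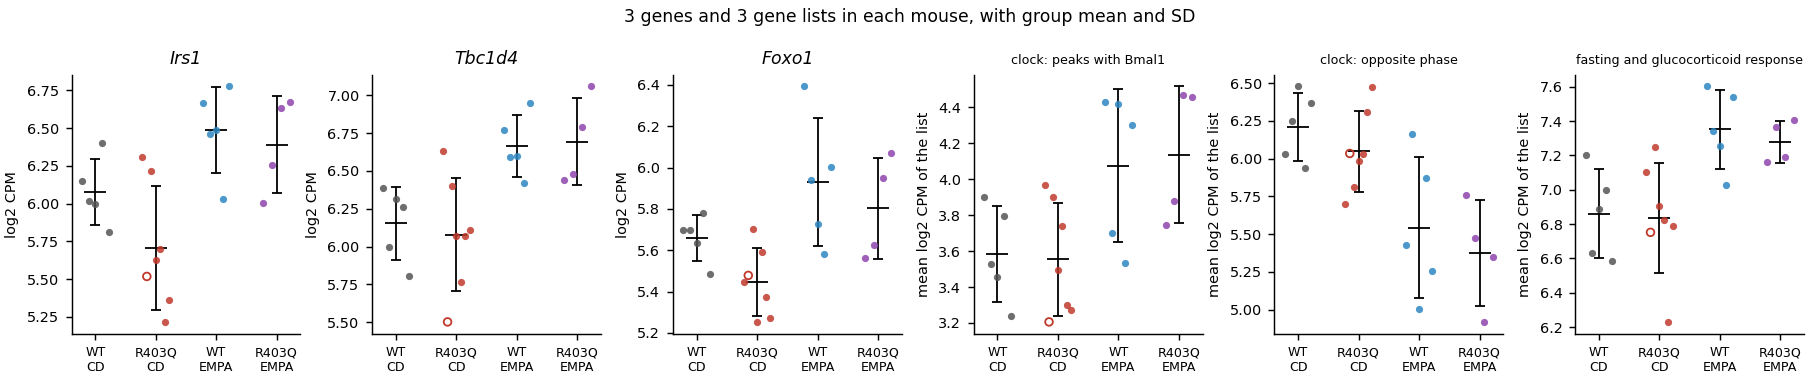
Irs1, Tbc1d4 and Foxo1 (log2 CPM) beside the mean log2 CPM of 3 gene lists in each of 21 mice, with group means and SD and R403Q-CD replicate 2 as an open circle; axes do not start at 0. Clock genes of the opposite phase average 6.21 and 6.05 in WT-CD and R403Q-CD and 5.54 and 5.38 in WT-EMPA and R403Q-EMPA, and in the other 5 panels both EMPA means lie above both CD means.

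Mice of the same group also differed from each other. Pairs of other genes were not examined in this way, so the pair values below cannot be read as particular to the 10 genes. As a description over 21 mice, which share scaling and library composition, the Spearman correlation of deviations from the group means was positive for 43 of 45 pairs of the 10 genes, with a median of 0.47 (0.44 without R403Q-CD replicate 2). It was highest for Insr with Tbc1d4 (0.84), Irs1 with Tbc1d4 (0.74) and Pik3r1 with Foxo3 (0.73). Slc2a1 with Akt2 (-0.12) and Slc2a4 with Slc2a1 (-0.06) were the negative pairs. Without R403Q-CD replicate 2 the negative pairs were Slc2a1 with Akt2 (-0.08) and Pik3r1 with Akt2 (-0.07), and Slc2a4 with Slc2a1 had 0.12.

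The genes whose log2 CPM followed Slc2a4 most closely over the 21 mice, groups included, were Bckdha (Spearman rho 0.95), Dcaf11 (0.94), Kmt5a (0.94), Gcdh (0.93) and Tmem38a (0.93), chosen as the highest among 17309 genes. Bckdha encodes a subunit of the branched-chain ketoacid dehydrogenase and Gcdh the glutaryl-CoA dehydrogenase. Pearson's r stayed between 0.87 and 0.92 without the 2 mice farthest from the median. For Slc2a1 the highest were 4833413G10Rik (0.83), D10Wsu102e (0.81), Glul (0.80), Cul4b (0.79) and Itga3 (0.78), and for Glul Pearson's r dropped from 0.57 to 0.44 without the 2 farthest mice. Of each set of 5 genes, 4 remained with the deposited log2 values.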

How the data were processed

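Per the labels and the methods, the authors made poly(A) libraries from left ventricles (NEBNext Ultra II), sequenced read pairs (Illumina NextSeq), aligned them with STAR 2.6.0c to mm10 and counted uniquely aligned proper pairs with featureCounts (Subread 1.6.2, Ensembl genes, mitochondrial genes left out). The deposited counts are raw read pairs per gene. The deposited log2-scale values are variance-stabilized by the authors with DESeq2 1.32.0 and served as an alternative only.

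Gene names and positions came from GENCODE on GRCm38 (55190 of 55450 identifiers). Totals per mouse were 23491535 to 43539684 counts (median 33329649), so that a limit of 3 counts lay at 0.0689 to 0.128 CPM, for counting error only. Genes with low counts were removed (filterByExpr, minimum 10), leaving 17309, and 1 model of 4 groups over 21 mice was fitted with edgeR 4.0.16 (TMM, quasi-likelihood F test, Benjamini-Hochberg over all genes, threshold 0.05) under R 4.3.3, for 7 comparisons. CPM are after TMM. P-values measure the spread between mice and take cage mates as independent. Exact permutation tests used SciPy 1.17.1 under Python 3.11.15, two-sided. Alternatives were DESeq2 1.42.0, limma 3.58.1 on the deposited log2 values, library size alone, no filter, cage as a factor, fits of 3 or 2 groups, and each mouse left out. The fit was tested on simulated data.

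Replicates were numbered in accession order, which pairs nothing. The members and lists were chosen with earlier results of these data known. All 10 members are named, with up to 4 called genes per list and comparison (smallest p), the 5 genes most like Slc2a4 and Slc2a1 by Spearman correlation, and clock and fasting genes that moved with a member; some genes of the lists are counted but not reported here by name. Within-cage values, list levels under other scalings, list genes and ratios without R403Q-CD replicate 2, limma-voom with cage as a random block (consensus correlation), each EMPA cage left out, and the test of cage means were added after seeing the data. The methods name the same strand as a condition of counting, but whether the libraries kept strand is not given in the sources used here, and genes overlapping a member on its strand had at most 0.964 CPM in any mouse.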

Additional observations from a re-analysis of the deposited data

Results flagged for a closer look

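In 2 of the 40 combinations of gene and group, 1 mouse lay far from the rest by Dixon's criterion, which chance meets in about 1 of 20 groups; groups of 4 to 7 mice were examined. Insr in R403Q-CD replicate 1 was 221.0 CPM, where the other mice of the group had 149.0 to 177.5 CPM. Foxo3 in R403Q-EMPA replicate 4 was 296.8 CPM, where the other mice of the group had 182.8 to 195.2 CPM.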

How the results depend on the processing

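Of 1580 values of the 10 genes under alternatives, 55 lost the call and 23 gained it. The sign changed in 66 (in 6 by more than 1 SE), all of them without a call in either fit (smallest adjusted p 0.649). The cause of the following shifts was not tested. R403Q-CD against WT-CD gave 250 genes, and 1128 (3 of the 10) with cage in the model, 982 (2 of the 10) with DESeq2, 98 in a fit of 3 groups and 28 in a fit of 2 groups. Genes higher and lower numbered 153 and 97, or 274 and 78 with library size alone, and averaged over diets 1091 and 792, or 1909 and 443. R403Q-EMPA against R403Q-CD gave 2 genes, 5 with library size alone, 0 in fits of 3 or 2 groups and 151 with DESeq2. WT-EMPA against WT-CD gave 5 genes, 0 with library size alone, 1 with limma and 110 with DESeq2. R403Q-EMPA against WT-EMPA gave 10 genes, 0 with cage in the model, 123 in a fit of 2 groups and 304 with DESeq2. Genotype averaged over diets gave 1883 genes, or 944 with cage in the model. Diet averaged over genotypes gave 504 genes, 314 with no filter, and 1005 (5 of the 10) with DESeq2. With cage as a random block it gave 113 (1 of the 10). With 1 EMPA cage left out it gave 84 (0 of the 10) without that of WT-EMPA replicate 1, 775 (5 of the 10) without that of replicate 4 and 1 (0 of the 10) without that of replicate 5. In R403Q the same cages left out gave 0, 1 and 0 genes (4 with limma-voom and no cage term), and in WT 4, 3 and 1 (1 with cage as a random block).

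With each mouse left out, R403Q-CD against WT-CD ran from 31 genes (without WT-CD replicate 3) to 1045 (without R403Q-CD replicate 3), with 0 to 3 of the 10. R403Q-EMPA against R403Q-CD ran from 0 to 12, WT-EMPA against WT-CD from 0 to 7 and R403Q-EMPA against WT-EMPA from 1 to 64, each with 0 of the 10. The genotype average ran from 961 (without R403Q-EMPA replicate 1) to 2764 (without R403Q-CD replicate 3), with 2 to 5 of the 10. The diet average ran from 122 (without R403Q-EMPA replicate 3) to 929 (without R403Q-CD replicate 3), with 0 to 4 of the 10. The labels give no replicate numbers shared between groups, and cage was the block that could be fitted. The comparisons that include R403Q-EMPA, the interaction among them, rest on 4 mice of that group.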
